A study of Mus musculus with 6 samples.

Results

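The genes described here are 10 genes of tumor necrosis factor (TNF) and death receptor signaling, out of 21899 genes in the deposited table of mouse tumor expression. They were taken by symbol: the ligands Tnf and Tnfsf9, the receptors Tnfrsf1a, Tnfrsf1b, Fas, Tnfrsf10b and Tnfrsf12a, and the intracellular effectors Ripk1, Ripk3 and Mlkl. All 10 symbols occurred in the table, and all 10 passed the filter on low values (an average of 1 FPKM or more), as did 10853 genes in total. FPKM scales the fragments of a gene by exon length and by the fragment total of the sample, so that levels of different genes can be set side by side.

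The tumors were grown from LLC-luc cells, a luciferase-labeled line of Lewis lung carcinoma, placed under the skin of male C57BL/6 mice. Photodynamic therapy (PDT) combines a light-absorbing compound with irradiation, and the study compared phycocyanin (PC), a blue algal pigment protein, with its selenium-enriched form (Se-PC). The Laser group had irradiation with saline in place of a photosensitizer, the PC-La group had PC injected before irradiation, and the SePC-La group had Se-PC injected in the same way. The labels place the injection in the tumor, the text of the study beneath or beside it. Each group had 2 samples, and irradiation was shared by all 3 groups, the control included. The labels give light of 620 nm for 10 min, 4 h after an injection that was given every 5 days, while the methods text gives a slightly longer wavelength and a shorter interval. The mice were adult, with no age in weeks given. The model is a single transplanted cell line at a site outside the lung in a host with its own immune cells, so each sample mixed tumor and host RNA. Neither the labels nor the methods say whether the 2 samples of a group came from separate mice, and the p-values measure only the spread between these samples. In such bulk samples, fewer cells of a type and less RNA per cell cannot be told apart.

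TNF is a cytokine made mainly by activated myeloid cells and lymphocytes. Its binding to TNF receptor 1 assembles a complex around RIPK1 that turns on NF-κB and survival genes. When that signal is altered, RIPK1 can instead join FADD and caspase-8 and drive apoptosis, or, where caspase-8 is inactive, join RIPK3, which phosphorylates MLKL so that it permeabilizes the cell membrane in necroptosis. Fas and the TRAIL receptor start apoptosis through FADD directly, whereas TNF receptor 2, 4-1BB and Fn14 lack a death domain and signal through TRAF proteins.

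The samples held between 14447792 and 17649489 reads on genes, as recovered from the deposited values. The Laser samples stood apart from each other. Across all genes tested, the correlation of log2 values was 0.946 between Laser 1 and Laser 2, lower than the 0.986 and 0.983 between Laser 1 and the PC-La samples, and it was 0.992 within PC-La and 0.972 within SePC-La. Skeletal muscle marker genes summed to 20.9 and 137 FPKM in Laser 1 and Laser 2 and to at most 5.94 FPKM elsewhere, and their part in the results was not tested. The tissue was labeled as lung cancer, yet the lung epithelial markers Nkx2-1 and Scgb1a1 were at 0 in all 6 samples, and the 6 markers of that list summed to between 0.679 and 1.74 FPKM. Both comparisons with Laser rest on this unequal pair of samples.

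The levels of the 10 genes spanned a wide range, and Tnf was the lowest of them. Tnfrsf1a, which encodes TNF receptor 1, was the most abundant member with a mean of 52.6 FPKM over the 6 samples (SD 3.65). Mlkl followed with 49.2 (SD 6.71) and Tnfrsf12a with 40.3 (SD 13), and the sample ranges of these neighbors overlapped. A clear step separated them from Tnfrsf1b at 12 FPKM (SD 1.74), whose samples overlapped with neither neighbor. Ripk1 at 7.71 (SD 0.613) and Tnfrsf10b at 6.01 (SD 0.636) came next, and their ranges did not meet. Below them, Ripk3 at 5.38 (SD 1.51), Fas at 3.8 (SD 1.42) and Tnfsf9 at 3.47 (SD 0.961) could not be ordered beyond their spread, since each range overlapped with the next, as did those of Tnfrsf10b and Ripk3. Tnf was the lowest member at 1.13 FPKM (SD 0.493), below every sample of Tnfsf9.

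**Figure D1:**
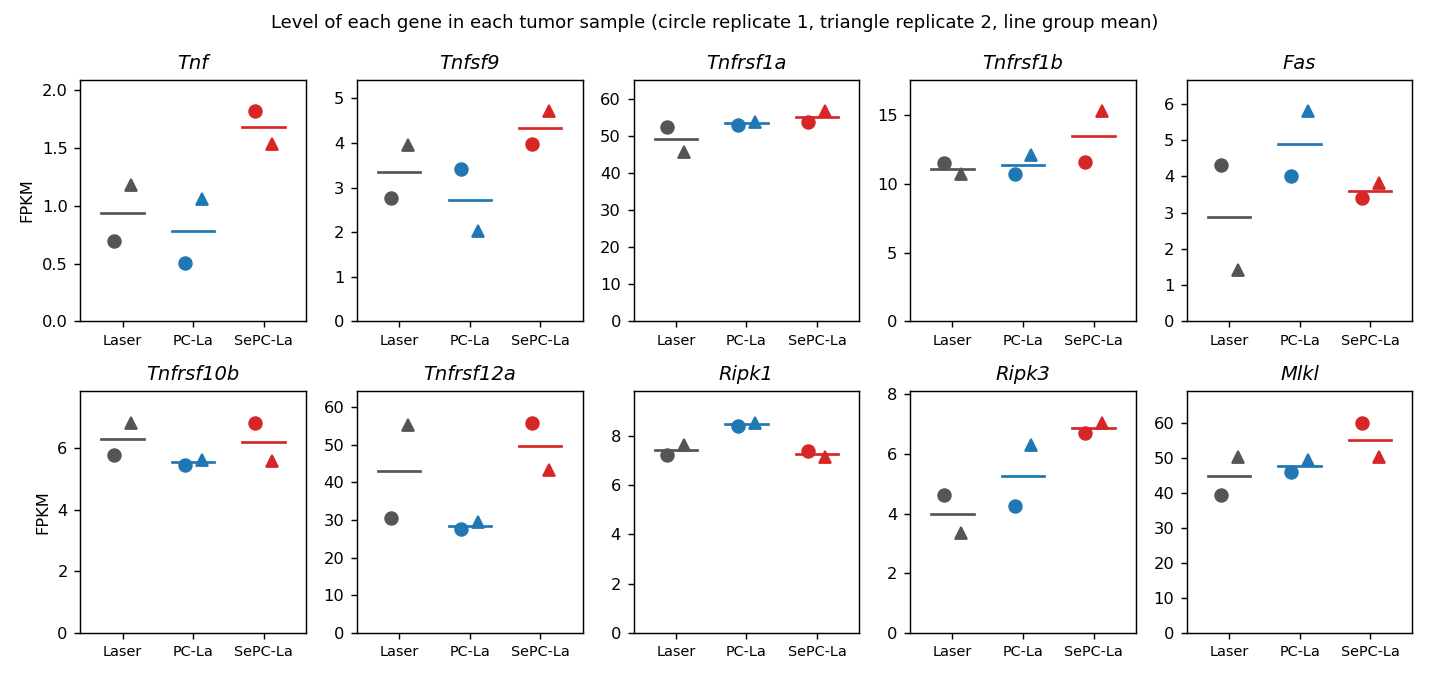
FPKM of each of the 10 genes in the 2 samples of each group (points), with group means as horizontal lines and a separate linear axis for each gene. Tnf lay between 0.508 and 1.82 FPKM. The SePC-La points of Tnf, Tnfsf9, Ripk3 and Mlkl were above all points of the other groups, for Tnfsf9 and Mlkl by a small margin.

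Promoter sequences are shown for Tnf, Tnfrsf12a and Ripk3, because these are the members that passed an unadjusted p of 0.05 in a comparison below. They are the 250 bases before the start of each gene in RefSeq (build GRCm38.p6), read 5′ to 3′ on the minus strand that all 3 genes use, at chr17:35202008-35202257, chr17:23677450-23677699 and chr14:55788858-55789107. Capitals mark TATAAA (the TATA box) and GGGCGG (the GC box) on either strand.
Tnf: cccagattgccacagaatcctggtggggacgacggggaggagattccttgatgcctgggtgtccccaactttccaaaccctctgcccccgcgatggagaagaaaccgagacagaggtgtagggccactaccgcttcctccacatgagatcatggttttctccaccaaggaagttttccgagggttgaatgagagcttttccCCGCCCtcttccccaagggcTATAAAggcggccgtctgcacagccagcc
Tnfrsf12a: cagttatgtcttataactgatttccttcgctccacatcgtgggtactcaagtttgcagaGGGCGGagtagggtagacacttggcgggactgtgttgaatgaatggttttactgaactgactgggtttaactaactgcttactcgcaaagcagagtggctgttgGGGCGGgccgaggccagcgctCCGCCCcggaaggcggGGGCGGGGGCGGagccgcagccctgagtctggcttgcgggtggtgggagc
Ripk3: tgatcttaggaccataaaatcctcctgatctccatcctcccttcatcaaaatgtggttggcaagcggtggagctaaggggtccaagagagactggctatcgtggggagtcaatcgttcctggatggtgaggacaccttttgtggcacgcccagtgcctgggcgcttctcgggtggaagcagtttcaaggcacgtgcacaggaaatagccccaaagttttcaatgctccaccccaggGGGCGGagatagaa
The Tnf window held a TATA box starting 29 bases and a GC box starting 49 bases before the gene. Tnfrsf12a held 5 GC boxes, of which those 50 and 44 bases upstream adjoin each other, and no TATA box, while Ripk3 held 1 GC box 14 bases upstream. Of 32851 promoter windows of the same length, 12.4% held TATAAA and 32.7% held GGGCGG. The AP-1 letters TGANTCA (6.75% of windows) and the NF-κB consensus (7.25%) were also searched on both strands. Of the 9 windows found for 8 members, 1 held the AP-1 letters, that of Fas, and 0 held the NF-κB consensus. No RefSeq window was matched for Tnfsf9 or Tnfrsf10b.

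Differences between groups were small for most of the 10 genes. Tnf and Tnfrsf12a were higher in SePC-La than in PC-La, and Ripk3 was higher in SePC-La than in Laser, each at an unadjusted p below 0.05. Changes were fitted with limma after the transformation log2(FPKM + 1), by which low genes appear to change less than they do, and none of the 10 met the criterion of the study (a log2 change of more than 1 in size together with an unadjusted p below 0.05). No gene of the whole table had a Benjamini-Hochberg adjusted p below 0.05 in limma in any comparison, while 627, 1318 and 2637 genes had an unadjusted p below 0.05 in PC-La against Laser, SePC-La against Laser and SePC-La against PC-La. Without Laser 1, 312, 97 and 639 genes had an adjusted p below 0.05 in limma in that order, and without Laser 2 there were 0, 0 and 643, although Laser enters the last comparison only through the estimate of the spread. The first pair of comparisons shares the Laser samples, so their values are given side by side and not as separate evidence.

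In PC-La against Laser, 0 of the 10 members had an unadjusted p below 0.05, where 5.78% of all genes did and 3.38% did so with a higher level. The criterion of the study was met by 1.29% of all genes. The median log2 fold change of the members was 0.07 and 6 were above 0, against 49.9% of all genes. The groups did not overlap for 4 members, Tnfrsf1a and Ripk1 being higher and Tnfrsf10b and Tnfrsf12a lower in PC-La, and they did not overlap for 42.0% of all genes (20.4% higher). Without Laser 1, 2 members had an unadjusted p below 0.05, Fas (higher) and Tnfrsf12a (lower), and 1 of them, Fas, met the criterion. In that setting 24.9% of all genes had such a p and 6.12% met the criterion.

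In SePC-La against Laser, 1 of the 10 members, Ripk3, had an unadjusted p below 0.05, against 12.1% of all genes (4.90% higher) and 0.682% that met the criterion. The median member change was 0.28, with 8 members above 0, where all genes had a median of -0.06 and 40.2% above 0. Both SePC-La samples were above both Laser samples for 6 members and below them for 0. The groups did not overlap for 40.6% of all genes, and 15.0% were higher. Members with an unadjusted p below 0.05 numbered 2 without Laser 1, 3 without Laser 2 and 0 without SePC-La 2, while the shares of all genes were 16.2%, 19.5% and 11.7%.

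In SePC-La against PC-La, 2 of the 10 members, Tnf and Tnfrsf12a, had an unadjusted p below 0.05, which is near the 24.3% of all genes (9.91% higher). The criterion was met by 2.98% of all genes. The median member change was 0.21 with 8 members above 0, and the median of all genes was -0.07 with 41.5% above 0. The groups did not overlap for 7 members, with Tnf, Tnfsf9, Tnfrsf12a, Ripk3 and Mlkl higher and Fas and Ripk1 lower in SePC-La, against 65.5% of all genes (26.0% higher). Members with an unadjusted p below 0.05 were 1 without PC-La 1, 1 without SePC-La 2 and 0 without SePC-La 1, while the shares of all genes were 8.07%, 23.5% and 11.5%. With 2 samples against 2, an exact permutation test cannot go below a two-sided p of 0.333.

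**Figure D2:**
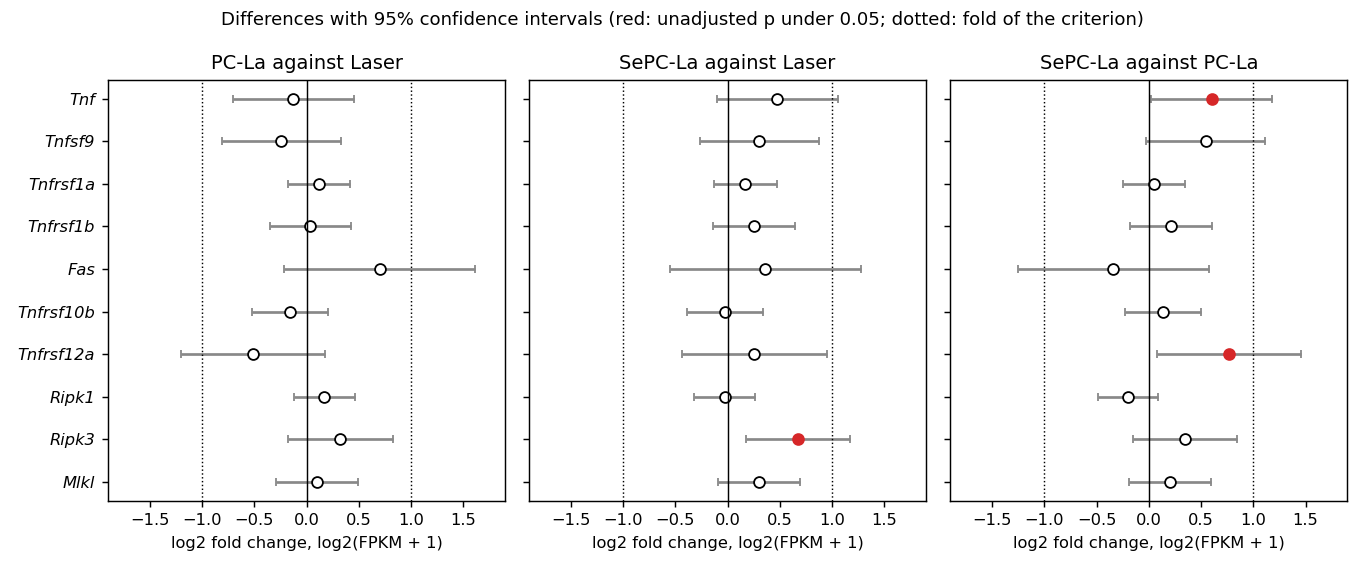
Log2 fold changes of the 10 genes on log2(FPKM + 1) in the 3 comparisons, with 95% confidence intervals from the limma fit across all genes and a line at 0. Only the intervals of Ripk3 in SePC-La against Laser and of Tnf and Tnfrsf12a in SePC-La against PC-La did not reach 0.

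Tnf (ENSMUSG00000024401, minus strand, chr17:35199381-35202007 on GRCm38) encodes the founding ligand of the family and was higher after Se-PC PDT than after PC PDT. Its level was 0.699 FPKM in Laser 1 and 1.18 in Laser 2, 0.508 in PC-La 1 followed by 1.06 in PC-La 2, and 1.82 in SePC-La 1 followed by 1.54 in SePC-La 2, and every pair of values here keeps that order. Both SePC-La samples were above all other samples, whereas Laser and PC-La overlapped. The means were 0.937 ± 0.337 in Laser, 0.784 ± 0.391 in PC-La and 1.68 ± 0.197 FPKM in SePC-La (SD, n = 2), so that the SePC-La mean was 2.14 times that of PC-La and 1.79 times that of Laser. The Laser and PC-La means were below the filter of 1 FPKM, so Tnf passed it only through SePC-La, where it was higher. Its difference is therefore not independent of the filter.

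The change of Tnf on the log2 scale was 0.60 (SE 0.24, 95% interval 0.02 to 1.18) in SePC-La against PC-La, with an unadjusted p of 0.0438 and an adjusted p of 0.196 from limma. Against Laser it was 0.48 (SE 0.24, adjusted p = 0.461) in SePC-La and -0.13 (SE 0.24, adjusted p = 0.891) in PC-La. Without Laser 2 the change in SePC-La was 0.65, with an unadjusted p of 0.0435. The signal rested on few reads, from 13 in PC-La 1 to 44 in SePC-La 2. Exact 95% Poisson intervals, which cover counting error only, ran from 0.27 to 0.868 FPKM in PC-La 1 and from 1.31 to 2.45 in SePC-La 1, but that of PC-La 2 (0.692 to 1.55) overlapped with both SePC-La intervals. Between SePC-La and PC-La, the unadjusted p was 0.276 without PC-La 1, 0.158 without SePC-La 1 and 0.0891 without SePC-La 2, and 9 of 15 alternatives kept it below 0.05.

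Tnfsf9 (ENSMUSG00000035678, plus strand, chr17:57105325-57107757) encodes 4-1BB ligand, a costimulator of T cells on antigen-presenting cells. Its values were 2.76 and 3.95 FPKM in the Laser samples, 3.42 and 2.02 after PC and 3.97 and 4.71 after Se-PC. The SePC-La samples were the highest, although SePC-La 1 exceeded Laser 2 by a small margin only. The mean was 4.34 ± 0.52 FPKM in SePC-La and 2.72 ± 0.992 in PC-La (SD, n = 2), a ratio of 1.59. This gave a log2 change of 0.54 (SE 0.24, adjusted p = 0.220), and its unadjusted p fell below 0.05 in 6 of 15 alternatives, among them those without PC-La 1, Laser 1 or Laser 2. Against Laser the changes were 0.30 in SePC-La (adjusted p = 0.608) and -0.24 in PC-La (adjusted p = 0.792).

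The receptor of Tnfsf9, 4-1BB (Tnfrsf9), is not among the 10 genes and was looked up with the other known partners of the members. It was at 17.6 and 7.99 FPKM (Laser), 8.16 and 10.9 (PC-La) and 43.7 and 26.3 (SePC-La). Both SePC-La samples were above all others. Tnfrsf9 had a log2 change of 1.74 (SE 0.41) in SePC-La against PC-La (adjusted p = 0.126, unadjusted p below 0.05) and of 1.43 (SE 0.41) against Laser (adjusted p = 0.376, unadjusted p below 0.05).

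The TNF receptors themselves differed little between groups. Tnfrsf1a (ENSMUSG00000030341, plus strand, chr6:125349362-125362484), the death-domain receptor found on nearly all cells, was at 52.4 and 45.7 FPKM under laser alone, 52.9 and 53.9 with PC and 53.8 and 56.7 with Se-PC. Laser 2 was the lowest sample, and both treated groups lay just above Laser 1. The log2 changes were 0.12 in PC-La and 0.17 in SePC-La against Laser (adjusted p = 0.796 and adjusted p = 0.582), with a 95% interval of -0.13 to 0.47 for the latter. Between the treated groups the change was 0.05 (adjusted p = 0.828).

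Tnfrsf1b (ENSMUSG00000028599, minus strand, chr4:145213463-145246870) encodes TNF receptor 2, which is most abundant on immune and endothelial cells. It was measured at 11.5 and 10.7 FPKM in the Laser samples, 10.7 and 12.1 after PC and 11.6 and 15.3 after Se-PC. Only SePC-La 2 stood clearly above the rest. Changes were 0.04 in PC-La and 0.25 in SePC-La against Laser and 0.22 between the treated groups, with an adjusted p of 0.954, 0.535 and 0.426 in the same order. Without SePC-La 1 the change in SePC-La against Laser was 0.44, with an unadjusted p of 0.0385.

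Fas (ENSMUSG00000024778, plus strand, chr19:34290666-34327772), the receptor of Fas ligand, varied more between the Laser samples than between any groups. It was at 4.32 FPKM in Laser 1 and 1.43 in Laser 2, a ratio of 3.02, and at 4 and 5.8 after PC and 3.42 and 3.81 after Se-PC. Laser 2 was the lowest sample of all and Laser 1 lay among the treated ones. The change in PC-La against Laser was 0.70 (SE 0.37, 95% interval -0.22 to 1.61, adjusted p = 0.753).

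The call of Fas turned on which Laser sample was kept. Without Laser 1 the change in PC-La was 1.26, with an unadjusted p of 0.00174, and without Laser 2 it was 0.13, with an unadjusted p of 0.571. In SePC-La against Laser the change was 0.36 with all samples (adjusted p = 0.70), 0.92 without Laser 1, where the unadjusted p fell to 0.00735, and -0.21 without Laser 2. Between the treated groups, which do not use Laser, Fas was lower in both SePC-La samples than in both PC-La samples by 0.34 on the log2 scale, with an adjusted p of 0.589. Fasl, the ligand, was below the filter with values from 0.214 to 1.82 FPKM.

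**Figure D3:**
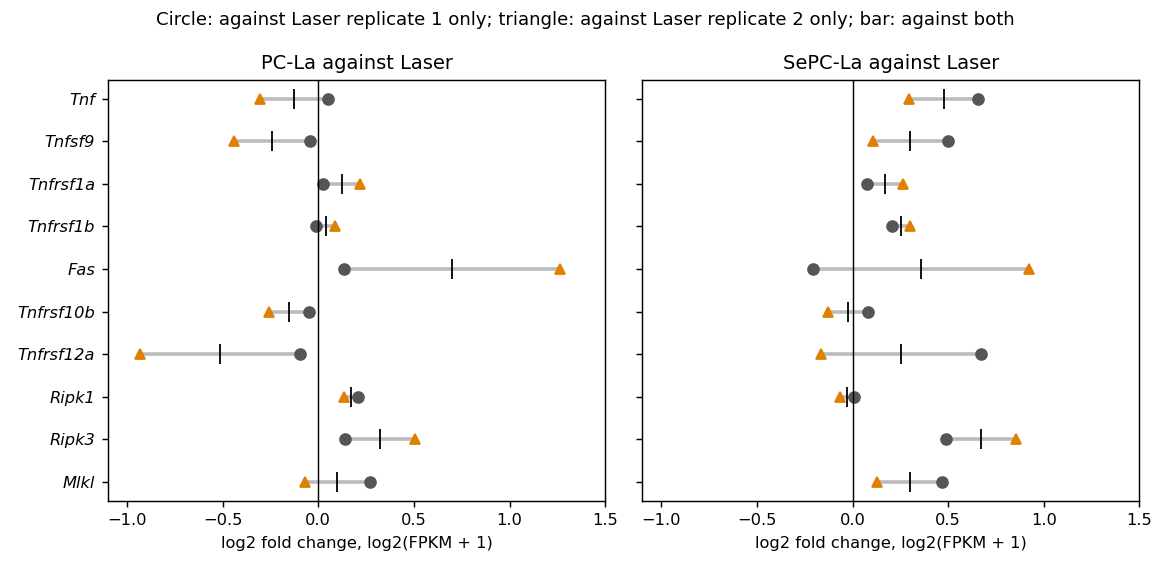
Log2 fold changes of the 10 genes against Laser on log2(FPKM + 1), with both Laser samples, without Laser 1 and without Laser 2. Fas and Tnfrsf12a moved most, Fas in PC-La from 1.26 without Laser 1 to 0.13 without Laser 2.

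Tnfrsf10b (ENSMUSG00000022074, plus strand, chr14:69767472-69784411) encodes the mouse death receptor for TRAIL. Its values of 5.77 and 6.82 FPKM (Laser), 5.46 and 5.61 (PC-La) and 6.82 and 5.57 (SePC-La) lay within a narrow range. PC-La was just below Laser, and SePC-La overlapped with both. The changes were -0.15 in PC-La and -0.02 in SePC-La against Laser and 0.13 between the treated groups, with adjusted p from 0.598 to 0.964.

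The ligand TRAIL (Tnfsf10) was 3.71 and 4.9 FPKM in PC-La against 1.93 and 1.09 in Laser and 1.45 and 2 in SePC-La. Both PC-La samples were the highest. The change was 1.09 (SE 0.23) in PC-La against Laser, with an unadjusted p of 0.00291 and an adjusted p of 0.51, and -0.96 in SePC-La against PC-La (adjusted p = 0.126).

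Tnfrsf12a (ENSMUSG00000023905, minus strand, chr17:23675445-23677468) encodes Fn14, the receptor of TWEAK, which is known to be induced by growth factors and tissue injury. It was at 30.5 and 55.3 FPKM under laser alone, 27.5 and 29.6 with PC and 55.9 and 43.3 with Se-PC. The PC-La samples were the lowest, the SePC-La samples were both above them, and the Laser samples spanned nearly the whole range. Group means were 42.9 ± 17.5, 28.5 ± 1.52 and 49.6 ± 8.87 FPKM (SD, n = 2), and SePC-La was 1.74 times PC-La.

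In SePC-La against PC-La, Tnfrsf12a had a log2 change of 0.77 (SE 0.28, 95% interval 0.07 to 1.46), with an unadjusted p of 0.0351 and an adjusted p of 0.183 from limma. It stayed below 0.05 unadjusted in 13 of 16 alternatives, but it was 0.119 without PC-La 1, 0.0832 without PC-La 2 and 0.165 without SePC-La 1. Over the alternatives the adjusted p ran from 0.0493, with Laser 2 left out of the estimate of the spread, to 0.592. Against Laser, the change was -0.51 in PC-La with all samples (adjusted p = 0.753), -0.93 without Laser 1, with an unadjusted p of 0.00286, and -0.09 without Laser 2. In SePC-La it was 0.25 with all samples (adjusted p = 0.718), -0.16 without Laser 1 and 0.67 without Laser 2, with an unadjusted p of 0.0123 for the last. The ligand TWEAK (Tnfsf12) was at 2.73 and 1.98 FPKM in the Laser samples, 2.37 and 2.51 after PC and 1.46 and 1.85 after Se-PC, and its change of -0.38 between the treated groups had an adjusted p of 0.254.

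Among the effectors, Ripk1 (ENSMUSG00000021408, plus strand, chr13:34002363-34037147) encodes the kinase that both survival and death complexes share. Its values were 7.21 and 7.64 FPKM (Laser), 8.4 and 8.54 (PC-La) and 7.37 and 7.13 (SePC-La). The PC-La samples were the highest, with no overlap with either group. Even so, the changes were small, 0.17 in PC-La and -0.03 in SePC-La against Laser and -0.20 in SePC-La against PC-La, with an adjusted p of 0.762, 0.934 and 0.333. Ripk1 overlaps Serpinb6a on the other strand, and since no source states that the counting used strand, reads of the overlap cannot be told apart.

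Ripk3 (ENSMUSG00000022221, minus strand, chr14:55784995-55788865), the necroptosis kinase that acts on MLKL, was higher in SePC-La than in Laser. It was at 4.61 and 3.36 FPKM under laser alone, 4.24 and 6.3 with PC and 6.7 and 7.05 with Se-PC. Both SePC-La samples were above all others, and PC-La overlapped with Laser. The means were 3.98 ± 0.881, 5.27 ± 1.45 and 6.88 ± 0.243 FPKM (SD, n = 2), with SePC-La at 1.73 times Laser.

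On the log2 scale Ripk3 differed by 0.67 between SePC-La and Laser (SE 0.21, 95% interval 0.17 to 1.17), with an unadjusted p of 0.0163 and an adjusted p of 0.376 from limma. Over the alternatives 13 of 16 gave an unadjusted p below 0.05. The exceptions were leaving out Laser 2 (change 0.49), SePC-La 1 and SePC-La 2, which gave an unadjusted p of 0.0753, 0.0535 and 0.0701. The change was 0.32 in PC-La against Laser (adjusted p = 0.753) and 0.35 in SePC-La against PC-La (adjusted p = 0.328), the latter with an unadjusted p of 0.0492 without PC-La 2.

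Mlkl (ENSMUSG00000012519, minus strand, chr8:111311797-111338177), the pore-forming executor of necroptosis, was abundant and differed less. It was at 39.4 and 50.1 FPKM in the Laser samples, 45.9 and 49.4 after PC and 60 and 50.3 after Se-PC. The SePC-La samples were the highest, but SePC-La 2 was nearly level with Laser 2. The changes against Laser were 0.10 in PC-La and 0.30 in SePC-La (adjusted p = 0.867 and adjusted p = 0.487), and that between the treated groups was 0.20 (adjusted p = 0.458). Without Laser 2 the change in SePC-La was 0.47, with an unadjusted p of 0.027. Zbp1, a nucleic acid sensor that engages RIPK3, had a different pattern. It was at 25.8 and 31.8 FPKM in PC-La, 16.9 and 9.22 in Laser and 17.4 and 18.1 in SePC-La, a log2 change of 1.13 in PC-La against Laser (SE 0.27, adjusted p = 0.642). Of the 7 necroptosis genes listed, all tested, 1 was higher and 0 lower in PC-La against Laser at an unadjusted p below 0.05, 1 was higher and 0 lower in SePC-La against Laser, and 0 were higher and 1 lower in SePC-La against PC-La. The 1 higher in SePC-La against Laser was the member Ripk3, and 0 were higher there without members. The medians of the list were 0.10, 0.00157 and -0.01. Against Laser the median in SePC-La was -0.07 without Laser 1, and the 1 higher no longer passed with either SePC-La sample left out. The 1 lower in SePC-La against PC-La was 0 with any 1 of the samples compared left out, and without PC-La 2 there was 1 higher instead.

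Lists of other genes of the pathway, some including members, were counted in the same way, against the 5.78%, 12.1% and 24.3% of all genes with an unadjusted p below 0.05 in PC-La against Laser, SePC-La against Laser and SePC-La against PC-La. With a sample left out these shares moved too, so counts with a sample left out are not to be read against them. Of 18 ligands of the TNF superfamily 6 passed the filter, and 1 was higher in PC-La than in Laser, 0 differed between SePC-La and Laser, and 1 was higher and 1 lower in SePC-La against PC-La at an unadjusted p below 0.05. In SePC-La against PC-La the 1 higher ligand was the member Tnf, and without members 0 were higher. Against Laser the median of the ligands in SePC-La was 0.34 without Laser 1 and 0.00278 without Laser 2. Against PC-La the median was 0.13 without SePC-La 1 and -0.02 without SePC-La 2. Which ligands passed also depended on the sample left out. Lta, the neighbor and relative of Tnf, was among those below the filter, at 0 to 0.278 FPKM. The medians of the ligands in the 3 comparisons were -0.04, 0.22 and 0.08, against -0.00062, -0.06 and -0.07 for all genes. Of 28 receptors 19 were tested, with medians of 0.11, 0.04 and -0.07. In PC-La against Laser 3 were higher and 0 lower, namely Cd40, Tnfrsf14 and Eda2r. Cd40, a costimulatory receptor of antigen-presenting cells, was at 2.5 and 3.14 FPKM in PC-La against 1.49 and 1.16 in Laser (change 0.71, adjusted p = 0.65). In SePC-La against Laser 2 receptors were higher and 0 lower, and in SePC-La against PC-La 4 were higher and 4 lower. The 4 higher included the member Tnfrsf12a, and without members 3 were higher. Without Laser 1 the receptor medians against Laser were 0.215 in PC-La and 0.141 in SePC-La. Without Laser 2 they were -0.00956 in PC-La and -0.0696 in SePC-La. Without PC-La 2, 0 differed in PC-La against Laser, and without PC-La 1, 1 was higher and 4 were lower in SePC-La against PC-La. In SePC-La against Laser the receptor median was 0.0743 without SePC-La 1 and 0.0842 without SePC-La 2. Which receptors passed against Laser also depended on the sample left out. Eda2r, the receptor of ectodysplasin A2, was at 5.38 and 5.67 FPKM in PC-La against 0.764 and 1.73 in SePC-La, a change of -1.57 (SE 0.40, adjusted p = 0.13).

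Adaptors and regulators of the receptor complex passed the unadjusted p no more often than genes in general. Of 25 listed, 24 were tested, with 0 higher and 0 lower in PC-La against Laser, 1 higher and 1 lower in SePC-La against Laser, and 3 higher and 1 lower in SePC-La against PC-La at an unadjusted p below 0.05. The 4 of 24 in the last comparison stand beside 24.3% of all genes, and 0 were higher or lower there with either PC-La sample left out. The medians were 0.02, -0.10 and -0.09. Tnip1, a partner of the ubiquitin-editing protein A20, was at 16.6 and 17.3 FPKM in SePC-La and at 13.4 and 12.8 in Laser (change 0.35, adjusted p = 0.382). Birc2, the ubiquitin ligase cIAP1 that acts on RIPK1, was at 6.65 and 8.87 FPKM in SePC-La and at 11.6 and 9.64 in Laser, a change of -0.41 (adjusted p = 0.409). Of 9 tested genes of death receptor apoptosis out of 10 listed, 0 were higher in any comparison, 1 was lower in SePC-La against Laser and 2 were lower in SePC-La against PC-La, Xiap and Cflar, where 24.3% of all genes passed. Those 2 were 0 with median-ratio scaling and without PC-La 1, PC-La 2 or SePC-La 1. With all samples the medians were 0.14, -0.04 and -0.32. In PC-La against Laser the median was 0.138 without Laser 1 and -0.0567 without Laser 2. In SePC-La against Laser it was -0.0728 without Laser 1 and -0.18 without Laser 2. The counts against Laser also changed with the Laser sample kept. Xiap, an inhibitor of caspases, was at 8.77 and 9.68 FPKM in SePC-La and at 12 and 12.9 in PC-La (change -0.39, adjusted p = 0.15), and Cflar, which blocks caspase-8, had a change of -0.49 (adjusted p = 0.198). Of 5 genes of TNF shedding, 1 was lower in SePC-La against PC-La and 0 passed in the comparisons with Laser. The medians of this list without Laser 1 were 0.00953 in PC-La and -0.0549 in SePC-La against Laser, and its counts there changed too. The 1 gene lower in SePC-La against PC-La no longer passed without PC-La 1, PC-La 2 or SePC-La 1. The gene was Adam17, the protease that releases TNF from the membrane, with a change of -0.48 (adjusted p = 0.145).

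Genes known to be induced by TNF through NF-κB had medians above 0 in both comparisons of SePC-La. Those comparisons share the SePC-La samples and are not separate evidence. Of 18 listed, 17 were tested. Against Laser 6 were higher and 0 lower in SePC-La at an unadjusted p below 0.05, and all 17 had a change above 0, with a median of 0.28 where all genes had -0.06. In SePC-La against PC-La 7 were higher and 0 lower, with a median of 0.34, and in PC-La against Laser 0 were higher and 1 lower with a median of -0.01. That last comparison depended on the Laser samples, with a median of 0.24 without Laser 1 and of -0.12 without Laser 2. Some of these genes, among them Nfkbia and Ccl2, were picked by the study from the same samples, so the list is not independent evidence. The paper describes Ccl2 as raised and Nfkbia as reduced by both treatments. Here Nfkbia reached 174 FPKM in SePC-La 2 and 134 in SePC-La 1, above every other sample and opposite to that description. Its PC-La levels, 58.4 and 62.5 FPKM, lay between Laser 2 at 57.5 and Laser 1 at 102. Ccl2 was at 397 and 436 FPKM in SePC-La, above every other sample. In PC-La it was at 179 and 259 FPKM and overlapped with Laser at 234 and 200, so only the SePC-La values were raised. The paper lists qRT-PCR primers for both genes, and the caption of its figure does not name the measure. The cause of these differences from the paper was not tested. In SePC-La against Laser the list had a median of 0.61 without Laser 1. Without Laser 2 the median was 0.343, with 13 of 17 above 0. Without SePC-La 2 it was 0.361, with 14 of 17 above 0, and fewer of the genes passed. The median there was 0.52 without SePC-La 1, 0.54 with a pseudocount of 0.1, 0.56 with voom on the recovered reads and 0.58 for the 12 genes past a minimum mean of 5 FPKM. In SePC-La against PC-La 4 were higher without PC-La 1, and the median ran from 0.23 without PC-La 1 to 0.69 with that minimum. The part of Tnf in these values was not tested.

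The genes of that list named next were chosen for the smallest p, so their separation of the groups is no separate result. Groups did not overlap for 65.5% of all genes in SePC-La against PC-La and 40.6% in SePC-La against Laser. Sod2, the mitochondrial superoxide dismutase, was at 12.7 and 13.3 FPKM (Laser), 9.6 and 10.4 (PC-La) and 21.3 and 20.4 (SePC-La). Its change in SePC-La against PC-La was 0.99 (SE 0.12), with an adjusted p of 0.0763. Ier3, an immediate early gene, was at 159 and 95.8, at 83.2 and 88.9, and at 289 and 266 FPKM in the same order, with a change of 1.68 (adjusted p = 0.0977). Relb, an NF-κB subunit, had a change of 0.51 in SePC-La against Laser (adjusted p = 0.376).

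**Figure D4:**
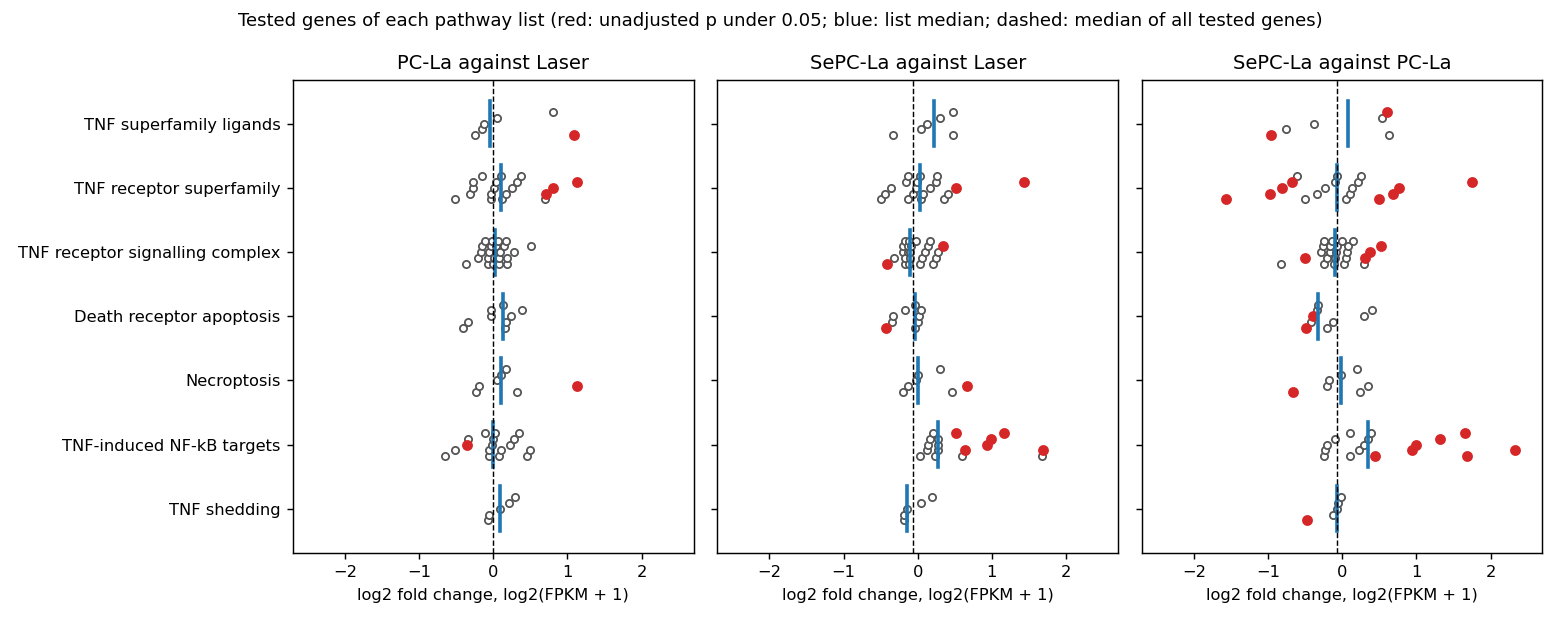
Log2 fold changes on log2(FPKM + 1) of every tested gene of the pathway lists (points) in the 3 comparisons, with list medians and a dashed line at the median of all genes. The NF-κB targets had medians of 0.28 and 0.34 in the comparisons of SePC-La with Laser and with PC-La.

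Markers of other cell types also differed between the groups. The 8 neutrophil markers summed to 40.4 to 163 FPKM in Laser, 81.5 to 152 in PC-La and 374 to 463 in SePC-La. Of these, 4 of the 7 tested were higher in SePC-La than in Laser at an unadjusted p below 0.05, against 4.90% of all genes. The 8 macrophage markers summed to 662 to 707 FPKM in Laser, 902 to 959 after PC and 391 to 734 after Se-PC, the lowest in SePC-La 1. In SePC-La against PC-La 4 of them were lower at an unadjusted p below 0.05, where 24.3% of all genes passed in either direction. The T cell markers summed to 3.08 to 8.78, 9.11 to 10.4 and 3.28 to 9.81 FPKM in the same order, and the fibroblast markers to 282 to 1219, 1547 to 1693 and 118 to 624. No marker of the neutrophil, macrophage, T cell or fibroblast lists was at 0 in all samples. The NK cell markers summed to 22.4 to 29.1, 28.4 to 53.8 and 16.05 to 32.7 FPKM in that order. Endothelial markers summed to 18.4 to 22.1, 21.5 to 29.8 and 24.5 to 31.9. Tnf, Tnfrsf9, Ripk3, Sod2 and Ier3 were highest in the group with the highest neutrophil sum. Tnfsf10, Cd40 and Zbp1 were highest in the group with the highest macrophage sum, which also had the highest fibroblast sum. These genes were picked with their values known, so the matches follow from the choice and are no separate result. The part of these cells in the results was not tested.

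The 5 genes whose pattern over the 6 samples was nearest to that of Tnf were Bzw2, Wdr55, Pold2, Nars and Tars. Nearness was the root mean square difference of log2(FPKM + 1) values after each gene's mean was removed, from 0.0627 for Bzw2 to 0.0856 for Tars, while the deviation of Tnf itself was 0.311. On this scale Tnf, as a low gene, appears to change less than it does. Bzw2 was at 21.8 and 26.9 FPKM under laser alone, 19.8 and 23.9 with PC and 35.5 and 30.7 with Se-PC. As with Tnf, SePC-La 1 was the highest sample and PC-La 1 the lowest. The genes were chosen for their nearness to Tnf, so this likeness follows from the choice and is no separate result.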

How the data were processed

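RNA of LLC-luc tumors was sequenced in 3 groups of 2 samples. The authors deposited normalized values per gene whose unit is not named. With exon lengths of GENCODE M21 (GRCm38) the values of all 6 samples came out as whole reads (within 0.02 reads) for 97.8% of 16768 expressed genes, so the deposited values were taken as FPKM. The submitters' processing notes name HISAT2 2.0.5, HTSeq 0.9.1, DESeq 1.30.0 and build mm9.

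Differences were fitted on log2(FPKM + 1) over the 10853 genes averaging 1 FPKM or more, using limma 3.58.1 in R 4.3.3 with group means, a trend and robust estimation (median 6.4 degrees of freedom) and Benjamini-Hochberg adjustment. All 6 samples shared the estimate of the spread. Members and gene lists were chosen with earlier results of these data known. In each list and comparison, the genes named were taken from the 4 with the smallest p below 0.05. Ligand and receptor partners of the members were added after their values were seen. Alternatives were another pseudocount, other filters, scalings and fits, the replicate block, limma's voom method on the recovered reads, and each sample left out in turn. Coordinates are from GENCODE M21 and promoters from RefSeq. The fit was tested on simulated data with changes larger than those of the members, in genes of 5 FPKM or more and with the same spread in all groups. That test does not cover low genes such as Tnf, small changes or the unequal Laser samples. Python 3.11.15, NumPy 2.4.6, pandas 2.3.3, SciPy 1.17.1 and matplotlib 3.10.9 were used.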

Additional observations from a re-analysis of the deposited data

How the results depend on the processing

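The depth limits Tnf most, with at most 44 reads in a sample, and 2 samples a group limit every result. Of the log2 changes recomputed without a sample of the comparison, 91 kept direction and side of the threshold, 9 passed it newly, 9 lost it and 11 reversed; under settings that keep all samples or only those compared 280, 3, 3 and 5 did so. Without a sample of the other group, which cannot move the change itself, 2 passed newly. Where a sample left out leaves 1 in its group, that sample is assumed to vary like the other groups. The number of members with an unadjusted p below 0.05 in SePC-La against PC-La was 1 in place of 2 with a pseudocount of 0.1, a minimum mean of 5 FPKM, the replicate block and voom on recovered reads, 3 with median-ratio scaling, quantile normalization and only the 4 samples compared, and from 0 to 3 with a sample left out. It ran from 0 to 2 in PC-La against Laser and from 0 to 3 in SePC-La against Laser, and the members that met the criterion of the study in PC-La against Laser from 0 to 1. The minimum mean of 5 FPKM gives no value for Tnf, Tnfsf9 and Fas.

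In SePC-La against Laser, median-ratio scaling turned Tnfrsf10b to 0.0492 and Ripk1 to 0.0422, and quantile normalization to 0.0827 and 0.0665. In SePC-La against PC-La, quantile normalization turned Tnfrsf1a to -0.0303. With a sample left out, PC-La against Laser ranged from -0.35 to 0.10 for Tnf, -0.0427 to 0.12 for Tnfrsf1b, -0.52 to 0.035 for Tnfsf9 and -0.0716 to 0.27 for Mlkl. SePC-La against Laser ranged from -0.15 to 0.10 for Tnfrsf10b, -0.21 to 0.92 for Fas, -0.16 to 0.67 for Tnfrsf12a and -0.0668 to 0.0076 for Ripk1. The cause was not tested. Over all genes, those that met the criterion were 129 with a pseudocount of 0.1 and 130 with voom in place of 74 in SePC-La against Laser, 221 with voom and 68 at the minimum of 5 FPKM in place of 140 in PC-La against Laser, and 488 with the pseudocount and 186 at the minimum in place of 323 in SePC-La against PC-La. With only the 4 samples compared, 637 genes had an adjusted p below 0.05 in SePC-La against PC-La and 700 in place of 1318 an unadjusted one in SePC-La against Laser.

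The same replicate number marks no shared animal or batch in the labels. Deviations of same-numbered samples correlated at 0.0862, -0.428 and -0.177 in PC-La against Laser, SePC-La against Laser and SePC-La against PC-La. With 2 samples a group, these values cannot decide whether same-numbered samples were paired, because the deviations of a group mirror each other. With the replicate block, p of Tnf was 0.0584 in SePC-La against PC-La.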
